A study of Mus musculus with 12 samples.

Results

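The Kv4 transient outward current complex was followed through 9 genes in ventricles of mouse embryos at embryonic day 12.5. The genes were taken by name from the deposited count table, 1 row per Ensembl gene and with no filter on counts, and all 9 were found among its 40800 genes. They are Kcnd1, Kcnd2 and Kcnd3, which encode the pore-forming subunits Kv4.1, Kv4.2 and Kv4.3, Dpp6 and Dpp10, and Kcnip1 to Kcnip4, which encode the Kv channel-interacting proteins (KChIPs). Bulk RNA sequencing was done on 6 libraries of ventricles with the genotype Wnt gain of function (GOF) and on 6 libraries of control ventricles. The labels name no allele, Cre driver, strain or treatment, do not say whether the right and left ventricle were pooled, and do not tie a library to 1 embryo or several. The p-values therefore measure the spread between these libraries, which may be technical in part. The title of the series sets the comparison in the context of Wnt-dependent programming of the ventricles and arrhythmia.

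Kv4 channels open on depolarisation and inactivate within milliseconds, and in the heart they carry the fast transient outward potassium current that starts repolarisation of the action potential. The pore is a tetramer of Kv4 subunits. KChIPs are calcium-binding proteins that attach to the cytoplasmic N-terminus of these subunits, raise their number at the cell surface and slow their inactivation. DPP6 and DPP10 are membrane proteins related to dipeptidyl peptidase 4 that lack peptidase activity and speed the opening, inactivation and recovery of the channel. In adult mouse ventricle the current is carried mainly by Kv4.2 and Kv4.3 with KChIP2, and DPP6 is best known from neurons. In humans, raised DPP6 expression has been linked to familial idiopathic ventricular fibrillation.

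The deposited counts summed to 12127026 to 17184662 per Wnt GOF library and to 10130088 to 17526325 per control library. Cardiomyocyte genes were present throughout, with 12 sarcomere and cardiac factor genes together at 34740 to 45010 CPM (counts scaled to library size, by trimmed mean of M values) in Wnt GOF libraries and at 36010 to 48840 CPM in control libraries. The library labelled Wnt GOF 5 stood apart from its group at standard readouts of the pathway. Axin2, a feedback inhibitor induced by beta-catenin, was at 14.9 to 26.0 CPM in the other Wnt GOF libraries, at 3.78 CPM in the library labelled Wnt GOF 5 and at 1.39 to 4.13 CPM in control libraries. Notum, a secreted Wnt inhibitor, was at 12.9 to 22.4 CPM in the other Wnt GOF libraries. It was at 1.18 CPM in the library labelled Wnt GOF 5, against a highest control value of 0.874 CPM. Fold changes of Kcnd2, Kcnd3 and Dpp6 are given with and without this library. Tests of the named genes outside the complex, and the means of the pore and KChIP sums, include it. The libraries also fell into 3 sets of 4 that each held 2 Wnt GOF and 2 control libraries. Wnt GOF 1 and 2 went with control 2 and 3, Wnt GOF 3 and 4 with control 4 and 5, and Wnt GOF 5 and 6 with control 1 and 6. The labels give no batch, so what separates the sets is not known, and values within them are given beside the results.

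Dpp6 was the member whose transcript level differed most between the groups. RefSeq (GRCm38.p6) lists 3 start sites for Dpp6, and gene-level counts do not tell which of them was in use. The 250 bases before each are shown because Dpp6 carried the clearest difference, with those of Kcnd2 and Kcnd3, whose values were also higher in Wnt GOF libraries, for comparison. Capitals mark CTTTG, the core shared by the motifs of the TCF and LEF factors that act with beta-catenin, or CAAAG where it lies on the other strand.
Dpp6 window A, chr5:26817107-26817356, plus strand: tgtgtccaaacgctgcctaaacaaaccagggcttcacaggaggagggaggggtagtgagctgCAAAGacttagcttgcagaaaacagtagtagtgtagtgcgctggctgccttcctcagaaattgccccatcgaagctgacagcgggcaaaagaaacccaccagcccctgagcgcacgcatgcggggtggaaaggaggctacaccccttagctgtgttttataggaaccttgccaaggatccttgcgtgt
Dpp6 window B, chr5:27048949-27049198, plus strand: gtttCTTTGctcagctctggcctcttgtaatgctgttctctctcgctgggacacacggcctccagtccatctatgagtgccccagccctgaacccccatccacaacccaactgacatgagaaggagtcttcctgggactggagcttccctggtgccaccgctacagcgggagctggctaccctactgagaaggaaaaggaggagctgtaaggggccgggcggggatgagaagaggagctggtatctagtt
Dpp6 window C, chr5:27261685-27261934, plus strand: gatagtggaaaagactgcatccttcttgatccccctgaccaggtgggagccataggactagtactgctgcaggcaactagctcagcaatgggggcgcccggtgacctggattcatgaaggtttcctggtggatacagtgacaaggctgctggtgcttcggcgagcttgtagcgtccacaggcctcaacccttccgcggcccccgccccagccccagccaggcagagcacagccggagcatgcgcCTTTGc
Kcnd2, chr6:21215096-21215345, plus strand: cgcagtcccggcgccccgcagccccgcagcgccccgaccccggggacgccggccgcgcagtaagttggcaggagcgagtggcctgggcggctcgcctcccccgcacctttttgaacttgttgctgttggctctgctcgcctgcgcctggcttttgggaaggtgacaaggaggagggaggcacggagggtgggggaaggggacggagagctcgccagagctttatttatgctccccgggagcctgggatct
Kcnd3, chr3:105451640-105451889, plus strand: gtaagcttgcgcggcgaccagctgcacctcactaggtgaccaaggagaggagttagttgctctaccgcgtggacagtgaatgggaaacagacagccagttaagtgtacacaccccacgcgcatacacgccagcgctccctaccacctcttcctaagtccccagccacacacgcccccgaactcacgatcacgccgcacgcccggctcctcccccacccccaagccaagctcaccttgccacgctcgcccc

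The 5-base core was in 7 of the 15 windows of the 8 members that matched, which include windows of Kcnip1, Kcnip3 and Kcnip4. Each Dpp6 window held it once, and the Kcnd2 and Kcnd3 windows held it on neither strand. Of 32851 promoter windows of the same length, 48.6% held the core. The longer motifs, in which the core CTTTG is followed by AA, AT, TA or TT, were in none of the 15 windows, on either strand, and in 14.8% of all windows. These matches describe letters in short windows and not binding.

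The pore-forming subunits were led by Kcnd2, which encodes Kv4.2. Scaled per kilobase of merged exons (GENCODE M21), the level of Kcnd2 was 3.14 ± 0.81 CPM per kb in Wnt GOF libraries and 1.99 ± 0.433 CPM per kb in control libraries (SD, n = 6 each). Kcnd1 and Kcnd3, which encode Kv4.1 and Kv4.3, were lower, at 0.444 ± 0.0884 and 0.427 ± 0.0703 CPM per kb in Wnt GOF libraries and at 0.404 ± 0.135 and 0.241 ± 0.0538 CPM per kb in control libraries. In Wnt GOF libraries these levels of Kcnd1 and Kcnd3 differed by less than their spread. Kcnd2 made up 66.9% to 82.5% of the length-scaled sum of the pore genes per Wnt GOF library and 67.5% to 86.0% per control library. The annotation behind the deposited counts is not given in the sources used here, so levels per kb are approximate.

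Kcnd3 (ENSMUSG00000040896) was the only member without overlap between the groups. It was at 3.18, 4.04, 4.52, 4.78, 3.40 and 4.65 CPM in Wnt GOF libraries 1 to 6, against 1.95, 1.69, 2.47, 3.18, 2.42 and 2.17 CPM in control libraries 1 to 6. All Wnt GOF values lay above all control values, by a margin of under 0.01 CPM between Wnt GOF 1 and control 4. Of all 14774 tested genes, 0.298% had no overlap in this direction. The means were 4.10 ± 0.674 CPM in Wnt GOF and 2.31 ± 0.516 CPM in control libraries, a log2 fold change of 0.82 ± 0.181 (SE; 95% interval 0.436 to 1.20). It did not pass edgeR's quasi-likelihood test over all genes (adjusted p = 0.0627). The library labelled Wnt GOF 5 lay above all controls for Kcnd3 and had the second lowest value of its own group. Within the 3 library sets the difference in mean log2 CPM was 0.77, 0.72 and 0.91. That no set had overlap follows from the lack of overlap over all libraries.

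Kcnd2 (ENSMUSG00000060882) was at 18.5, 19.7, 17.7, 17.3, 8.07 and 15.9 CPM in Wnt GOF libraries 1 to 6, against 8.14, 12.1, 10.4, 11.4, 12.6 and 7.05 CPM in control libraries 1 to 6. The library labelled Wnt GOF 5 lay among the controls, and the other 5 Wnt GOF libraries lay above all of them, as 1.36% of tested genes did without that library. Over all libraries the log2 fold change was 0.66 ± 0.196 (edgeR adjusted p = 0.266; 95% interval 0.246 to 1.08). Without the library labelled Wnt GOF 5 it was 0.80 ± 0.145, and Kcnd2 passed the test (edgeR adjusted p = 0.00809), as did Kcnd3 with 0.87 ± 0.188 (edgeR adjusted p = 0.0315). That library was set apart after its values, including the low value of Kcnd2, were seen, so p-values without it can be too small. Kcnd1 had 24 to 44 counts per Wnt GOF library and 11 to 39 per control library, and its groups overlapped fully. It averaged 2.35 ± 0.467 CPM in Wnt GOF and 2.14 ± 0.712 CPM in control libraries, a log2 fold change of 0.13 ± 0.237, whose 95% interval of -0.37 to 0.636 includes changes of either sign. Within the library sets its difference in mean log2 CPM was 0.82, -0.37 and 0.06. With the library sets as a term in the model, edgeR called Kcnd2 (adjusted p = 0.00933) and Kcnd3 (adjusted p = 0.0128) higher, among 1.32% of tested genes. The sets were found in these same libraries, so these p-values can be too small. Within them 3 pairs of libraries of 1 group were much closer to each other than all other pairs (Wnt GOF 1 and 2, Wnt GOF 3 and 4, control 2 and 3). With each of these pairs summed, edgeR called neither Kcnd2 (log2 fold change 0.61, adjusted p = 1.00) nor Kcnd3 (0.79, adjusted p = 0.402). Summed pairs without the library labelled Wnt GOF 5 also gave no call for Kcnd2 (0.80, edgeR adjusted p = 0.0887) or Kcnd3 (0.86, edgeR adjusted p = 0.165).

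**Figure D1:**
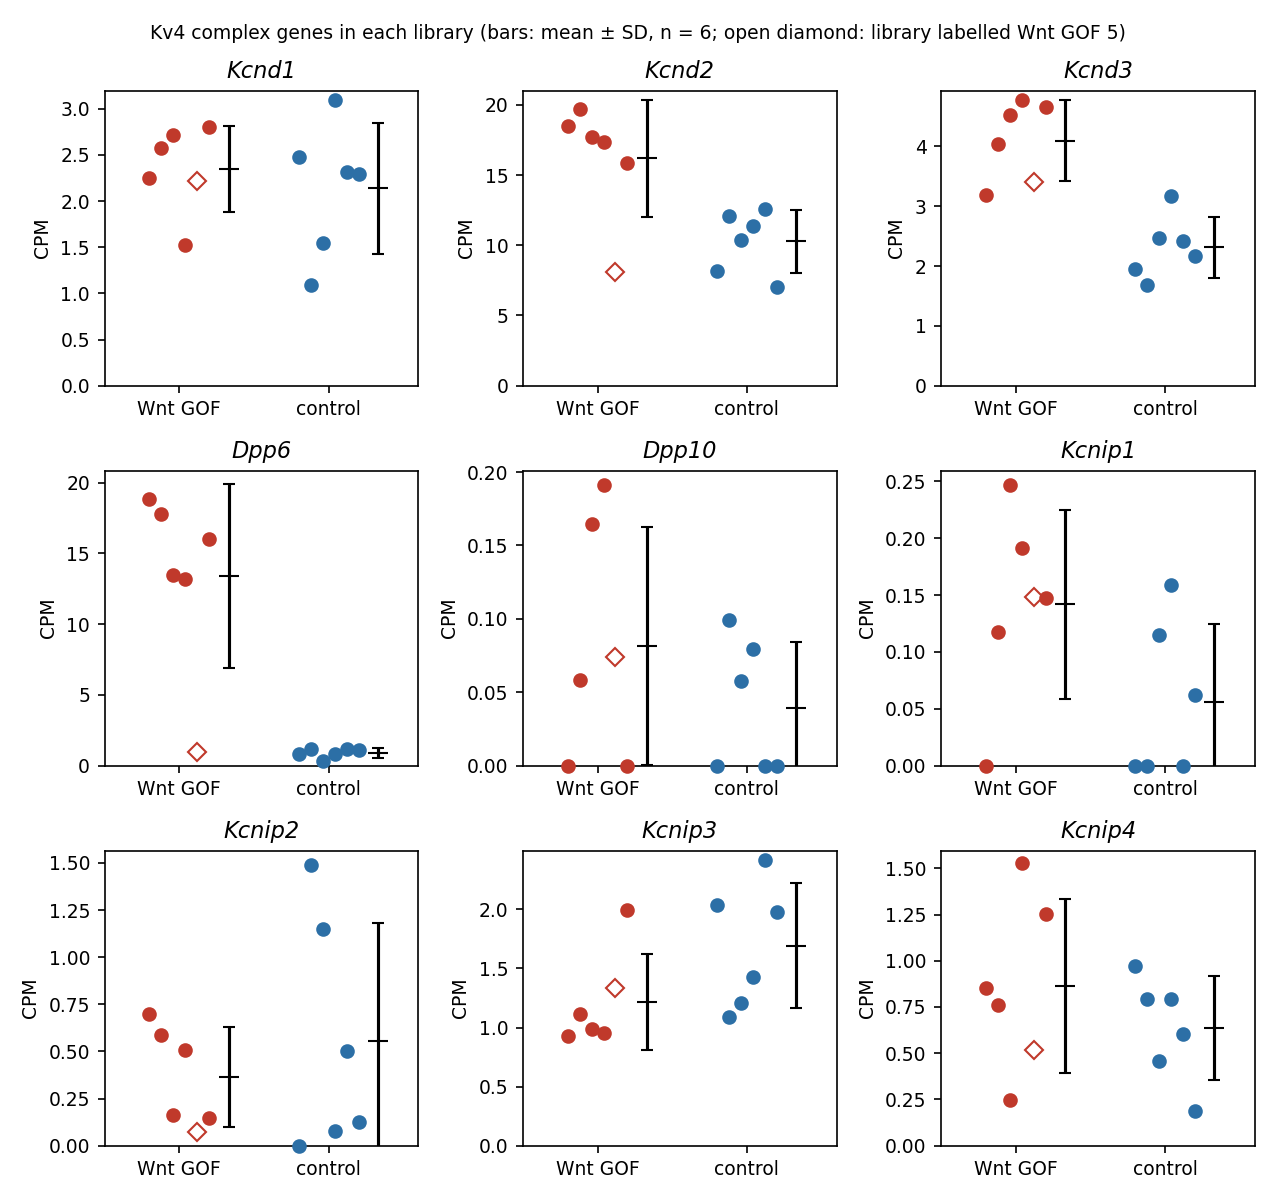
CPM of each of the 9 genes in the 6 Wnt GOF libraries (left, red) and the 6 control libraries (right, blue), with the mean ± SD beside each group (bars that would run below 0 end at the axis) and the library labelled Wnt GOF 5 as an open diamond. Dpp6 stands at 13.2 to 18.9 CPM in 5 Wnt GOF libraries and at 0.962 CPM in the diamond, which lies among the controls, as it does for Kcnd2.

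Dpp6 (ENSMUSG00000061576) rose in the Wnt GOF ventricles and was the 1 member that passed the test over all genes. It had 243, 304, 164, 207, 13 and 217 counts in Wnt GOF libraries 1 to 6, or 18.9, 17.8, 13.5, 13.2, 0.962 and 16.0 CPM. In control libraries 1 to 6 it had 9, 12, 6, 10, 12 and 18 counts, or 0.796, 1.19, 0.345, 0.794, 1.21 and 1.11 CPM. The library labelled Wnt GOF 5 lay within the control range, with an exact Poisson 95% interval of 0.512 to 1.65 CPM for its 13 counts that covers counting error only, and the other 5 lay above every control. The group means were 13.4 ± 6.50 CPM in Wnt GOF and 0.908 ± 0.333 CPM in control libraries (SD, n = 6 each). The log2 fold change was 3.91 ± 0.567 (SE; 95% interval 2.68 to 5.14; edgeR adjusted p = 0.0145).

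Leaving out the library labelled Wnt GOF 5 raised the Wnt GOF mean of Dpp6 to 15.9 ± 2.53 CPM (n = 5) and gave a log2 fold change of 4.16 ± 0.229 (adjusted p in edgeR 6.03e-08). Because this library was set apart with its low value of Dpp6 known, p-values of Dpp6 without it can be too small. Within the 3 library sets the difference in mean log2 CPM was 4.51, 3.58 and 1.96, the last in the set that holds this library. With all libraries, limma-voom did not call Dpp6 (adjusted p = 0.233), nor did edgeR once the 3 closest library pairs were summed (adjusted p = 0.208). Both called it without the library labelled Wnt GOF 5 (limma-voom adjusted p = 9.63e-07, edgeR with summed pairs 1.07e-06), where they called 1.02% and 0.668% of tested genes higher, against 0.0203% and 0% with all libraries. In the authors' deposited table, where limma names the columns, Dpp6 had a log2 fold change of 3.57 with an adjusted p of 0.241, Kcnd3 of 0.82 with 0.143 and Kcnd2 of 0.66 with 0.416. In bulk tissue, more cells with a transcript and more transcript per cell cannot be told apart.

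The other auxiliary subunit of this family, Dpp10, was close to the detection limit. It had 7 counts over the 6 Wnt GOF libraries and 3 over the 6 control libraries, with 0 counts in 2 Wnt GOF and 3 control libraries. A count of 0 allows up to 3 counts, which is 0.171 to 0.296 CPM depending on the library. Small differences of Dpp10 could therefore not be seen at this depth. With no count filter the log2 fold change of Dpp10 was 0.93 ± 0.932 (edgeR adjusted p = 0.881). Of 8 genes listed beside Dpp6 and Dpp10 for a similar name or sequence, all 8 were tested and 0 passed in edgeR. At an unadjusted p under 0.05, 1 was higher, against 3.73% of all tested genes. The median log2 fold change of the 8 was -0.03 against 0.00 over all tested genes. Dpp4, the catalytically active relative, was at 60.3 ± 9.09 CPM in Wnt GOF and 51.0 ± 5.66 CPM in control libraries (edgeR adjusted p = 0.685), and Dpp3 had a log2 fold change of 0.15.

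**Figure D2:**
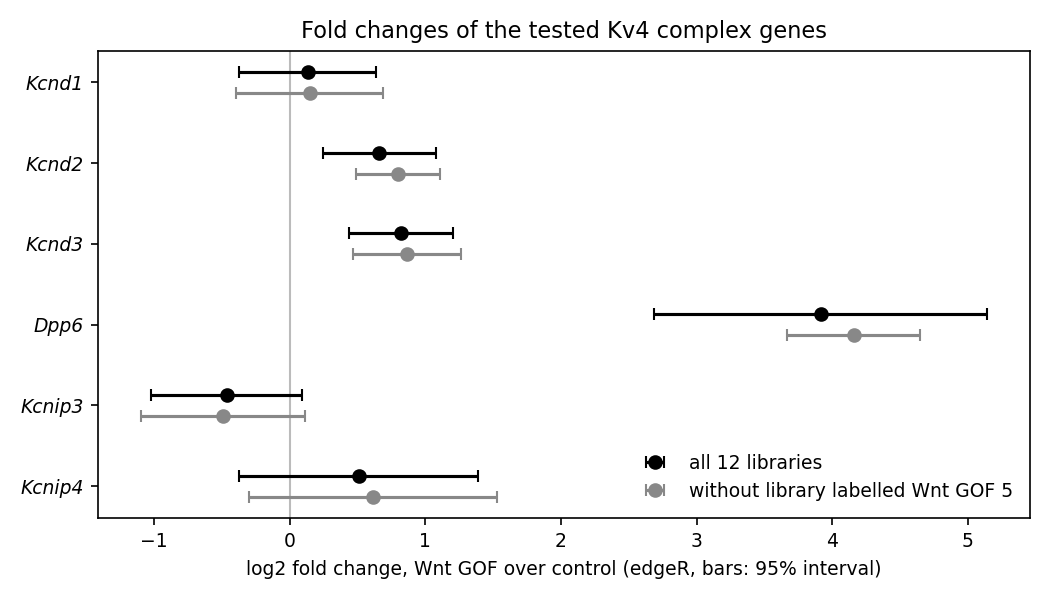
Log2 fold change of the 6 tested members, Wnt GOF over control, with 95% intervals from edgeR for all 12 libraries (black) and without the library labelled Wnt GOF 5 (grey). Dpp6 stands at 3.91 and 4.16, Kcnd2 and Kcnd3 lie between 0.66 and 0.87 with intervals above 0, and the intervals of Kcnd1, Kcnip3 and Kcnip4 include 0.

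The KChIP genes were all low in both groups. Kcnip2, the gene of the main KChIP of adult ventricle, had 9, 10, 2, 8, 1 and 2 counts in Wnt GOF libraries 1 to 6, against 0, 15, 20, 1, 5 and 2 counts in control libraries 1 to 6. It missed the low-count filter and averaged 0.364 ± 0.266 CPM in Wnt GOF and 0.557 ± 0.624 CPM in control libraries. The highest counts were those of control 2 and 3 and of Wnt GOF 2 and 1, which form 1 library set. With no count filter its log2 fold change was -0.56 ± 0.748 (edgeR adjusted p = 0.954).

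Kcnip3, which encodes KChIP3, also known as calsenilin and DREAM, had 12 to 27 counts per Wnt GOF library and 11 to 32 per control library. Its values in Wnt GOF libraries 1 to 6 were 0.932, 1.11, 0.987, 0.956, 1.33 and 1.99 CPM, against 2.04, 1.09, 1.21, 1.43, 2.42 and 1.98 CPM in control libraries 1 to 6. The groups overlapped, with 3 Wnt GOF libraries below all controls and Wnt GOF 6 at the level of the higher ones. The log2 fold change of Kcnip3 was -0.46 ± 0.262 (edgeR adjusted p = 0.939), with a 95% interval of -1.02 to 0.0908. Kcnip4, which encodes KChIP4, had 3 to 24 counts per Wnt GOF library and 3 to 11 per control library, and a log2 fold change of 0.51 ± 0.415 (adjusted p in edgeR 0.999). Its exons share 168 bases with a gene on the opposite strand, 5730480H06Rik, in GENCODE M21, and the strand setting of the counting is not given in the sources used here, so its counts are uncertain. Kcnip1, which encodes KChIP1, had 12 counts over the 6 Wnt GOF libraries and 5 over the 6 control libraries. It missed the low-count filter, and with no count filter its log2 fold change was 1.07 ± 0.824 (edgeR adjusted p = 0.812).

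The order of the members by level per kb differed between the groups mainly through Dpp6. In Wnt GOF libraries Dpp6 came after Kcnd2 with 1.09 ± 0.526 CPM per kb and was followed by Kcnd1, Kcnd3, Kcnip3 at 0.344 ± 0.115, Kcnip4 at 0.237 ± 0.13 and Kcnip2 at 0.105 ± 0.0765 CPM per kb. In control libraries Kcnd2 was followed by Kcnip3 at 0.477 ± 0.149, Kcnd1, Kcnd3, Kcnip4 at 0.175 ± 0.0778, Kcnip2 at 0.16 ± 0.179 and only then Dpp6 at 0.0735 ± 0.027 CPM per kb. Kcnip1 and Dpp10 were lowest in both groups, at up to 0.0229 CPM per kb. Neighbours in the order differed by less than the larger of their SDs from Kcnd1 to Kcnip4 in Wnt GOF libraries, and from Kcnip3 to Kcnd1 and from Kcnd3 to Dpp6 in control libraries.

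Of 9 members, 6 passed the low-count filter, 1 was called higher by edgeR and 0 lower, where 0.433% and 0.0677% of all tested genes were called. At an unadjusted p under 0.05, 3 of the 6 were higher and 0 lower, against 3.73% and 2.57% of all tested genes. Without the library labelled Wnt GOF 5, edgeR called 3 members higher, where 1% of all tested genes were called in that direction, and 1 member with the closest pairs summed as well. Members and comparison were proposed with earlier results of these libraries known, so these counts describe the list. DESeq2 called Dpp6 and Kcnd3 with all libraries (adjusted p = 1.20e-08 and 0.00696), where it called 0.914% of tested genes higher. Without the library labelled Wnt GOF 5, DESeq2 called 3 members and 1.57% of tested genes higher. Without control 4, edgeR called Dpp6 and Kcnd3, among 0.408%, and with replicate number as a block it called Dpp6 alone, among 0.318%.

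Relative to the pore genes, Dpp6 transcripts were more abundant and KChIP transcripts less abundant in most Wnt GOF libraries. The length-scaled sum of Kcnd1, Kcnd2 and Kcnd3 was 4.01 ± 0.85 CPM per kb in Wnt GOF and 2.64 ± 0.45 CPM per kb in control libraries (SD, n = 6 each). The ratio of Dpp6 to this sum was 0.352, 0.305, 0.247, 0.257, 0.0333 and 0.317 in Wnt GOF libraries 1 to 6 and between 0.0109 and 0.0445 in control libraries. The ratio of the summed KChIP genes to the pore sum was 0.183 ± 0.0562 in Wnt GOF and 0.316 ± 0.0544 in control libraries. Its groups overlapped through control 4, at 0.215, which lay below Wnt GOF 5 and 6 at 0.241 and 0.238. The sum of the KChIP genes alone was 0.709 ± 0.197 CPM per kb in Wnt GOF and 0.822 ± 0.14 CPM per kb in control libraries, a difference within 1 SD. These ratios are descriptions of transcript levels and were not tested.

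**Figure D3:**
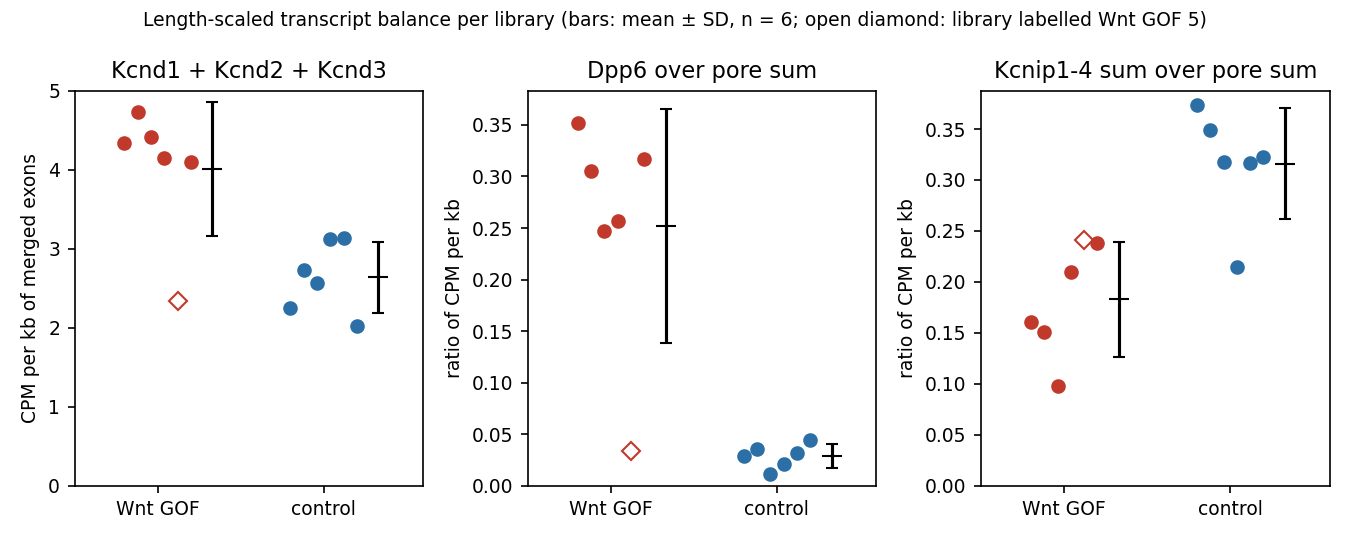
Per library, the summed level of the pore genes in CPM per kb of merged exons, and the ratios of Dpp6 and of the summed KChIP genes to it, for Wnt GOF (left, red) and control (right, blue), with mean ± SD and the library labelled Wnt GOF 5 as an open diamond. In 5 Wnt GOF libraries the Dpp6 ratio is 0.247 to 0.352, against at most 0.0445 in control libraries.

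Other genes of the current and its channel class were set beside the members. Of 22 listed modulators and regulators of the transient outward current, such as accessory beta subunits and Iroquois transcription factors, 20 were tested and 0 passed in edgeR in either direction. An unadjusted p under 0.05 was found for 2 higher and 5 lower ones, against 3.73% and 2.57% of all tested genes. The median log2 fold change of the list was -0.01. Kcne3, a single-pass accessory subunit, was at 11.7 ± 2.31 CPM in Wnt GOF and 15.5 ± 1.90 CPM in control libraries (edgeR adjusted p = 0.368). Kcnab1, a cytoplasmic beta subunit of Kv1 channels, showed a log2 fold change of -0.50 (adjusted p in edgeR 0.464). Of 34 other voltage-gated potassium channel subunits, 13 were tested, with a median of -0.13, and 12 did not pass. In edgeR 1 was called higher and 0 lower, against 0.433% and 0.0677% of all tested genes. An unadjusted p under 0.05 was reached by 3 higher and 1 lower, against 3.73% and 2.57% of all tested genes. The called gene was Kcnh7, which encodes an ether-a-go-go-related channel, at 23.6 ± 5.05 CPM in Wnt GOF and 12.7 ± 2.92 CPM in control libraries (log2 fold change 0.89 ± 0.174, edgeR adjusted p = 0.0277). With the closest library pairs summed, edgeR called 0% of tested genes higher, so Kcnh7 had no call there. Kcng1, which encodes a silent subunit, showed a log2 fold change of 0.95 (adjusted p in edgeR 0.339). Among 9 neuronal calcium sensors related to the KChIPs, 6 were tested and 0 passed in edgeR. At an unadjusted p under 0.05, 1 was higher and 1 lower, against 3.73% and 2.57% of all tested genes. These were Hpcal1 and Ncald, with log2 fold changes of 0.51 and -0.27.

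Markers of neurons and neural crest cells were set beside Dpp6, which neurons express. Of 16 such genes 7 were tested and 0 passed in edgeR. At an unadjusted p under 0.05, 2 were lower in Wnt GOF libraries and 0 higher, against 2.57% and 3.73% of all tested genes. The summed level of the 16 genes was 30.8 to 44.3 CPM in Wnt GOF and 31.9 to 51.7 CPM in control libraries. Without the library labelled Wnt GOF 5, the Wnt GOF libraries were at 30.8 to 38.4 CPM. The part of these cells in the level of Dpp6 was not tested. Stmn2, a neuronal tubulin regulator, was at 2.90 ± 1.91 CPM in Wnt GOF and 6.76 ± 2.81 CPM in control libraries (edgeR adjusted p = 0.378), and Snap25, a synaptic vesicle fusion protein, had a log2 fold change of -0.46. The neural crest factor Foxd3 had 0 counts over the Wnt GOF libraries and 1 over the control libraries.

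Markers of the trabecular and compact layers of the ventricular wall were also set beside the members. Of 8 trabecular genes 0 passed in edgeR and 5 reached an unadjusted p under 0.05, all higher, where 3.73% of all tested genes did so. Of the 8 genes, 6 had a log2 fold change above 0, and the median was 0.42. Their summed level was 1646 to 2224 CPM in Wnt GOF and 1395 to 1717 CPM in control libraries. Much of this sum was Nppa, with means of 1170 CPM in Wnt GOF and 815 CPM in control libraries. The library labelled Wnt GOF 5 had the lowest sum of its group, within the control range, and the other 5 were at 1838 to 2224 CPM. For Slit2 and Nppa, both enriched in trabecular muscle, the log2 fold changes were 0.39 (adjusted p in edgeR 0.0569) and 0.52 (0.0842). Of 4 compact layer genes Hey2 fell (edgeR adjusted p = 0.0145) and Fhl2 had a log2 fold change of -0.42. These 2 were lower at an unadjusted p under 0.05, against 2.57% of all tested genes. Of the 4 genes, 1 had a log2 fold change above 0, and the median was -0.27. The sum of the 4 was 487.5 to 581.1 CPM in Wnt GOF and 603 to 687.5 CPM in control libraries. Here the library labelled Wnt GOF 5 had the highest sum of its group, below all controls, and the other 5 were at 487.5 to 550.2 CPM. None of these 12 genes had 0 counts in all libraries. The part of these layers in the values of Kcnd2, Kcnd3 and Dpp6 was not tested. Of 12 cardiomyocyte, 8 endothelial and endocardial, 6 epicardial and 6 mural markers, 1 passed in edgeR. It was the mural gene Rgs5, which fell by 2.54 on the log2 scale. Over the whole test edgeR called 0.0677% of genes lower and 0.433% higher. An unadjusted p under 0.05 was found for 1 cardiomyocyte and 1 endothelial or endocardial gene, both higher, and for 1 mural gene, lower. The epicardial list had 0 in either direction. Over the whole test the shares with such a p were 3.73% in the higher and 2.57% in the lower direction. The median log2 fold changes of the cardiomyocyte, endothelial and endocardial, epicardial and mural lists were -0.08, 0.06, -0.04 and -0.06. Myh6 and Actn2, Npr3 and Tek, Tbx18 and Tcf21, and Acta2 had log2 fold changes of 0.26 and -0.28, 0.44 and 0.16, -0.15 and 0.10, and -0.10.

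The genes whose pattern over the 12 libraries was most like that of a member were found among 14159 others with a mean of at least 1 CPM, as a description. Dpp6 was most like Esyt3 (Pearson r of log2 CPM 0.991), which encodes an extended synaptotagmin at membrane contact sites, Lin7a (0.976), which encodes a scaffold protein, and Dkk2 (0.975), a secreted Wnt modulator. Esyt3 was at 18.8 CPM in Wnt GOF and 0.916 CPM in control libraries, a log2 fold change of 4.40 (adjusted p in edgeR 0.0145). Without the library labelled Wnt GOF 5 these values of r were 0.991, 0.975 and 0.974. Kcnd2 was most like Stmn1 (0.934), Ppm1l (0.932) and Cyp27a1 (0.929), and Kcnd3 most like Zpr1 (0.946), Slit2 (0.930) and Frem1 (0.925). For Kcnd1 they were Tram2, Ganab and Nxpe3, and for Kcnip3 Dnajc17, Entpd6 and Vstm5, with r from 0.828 to 0.922. The libraries share their group difference and their sets, which raise such values.

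**Figure D4:**
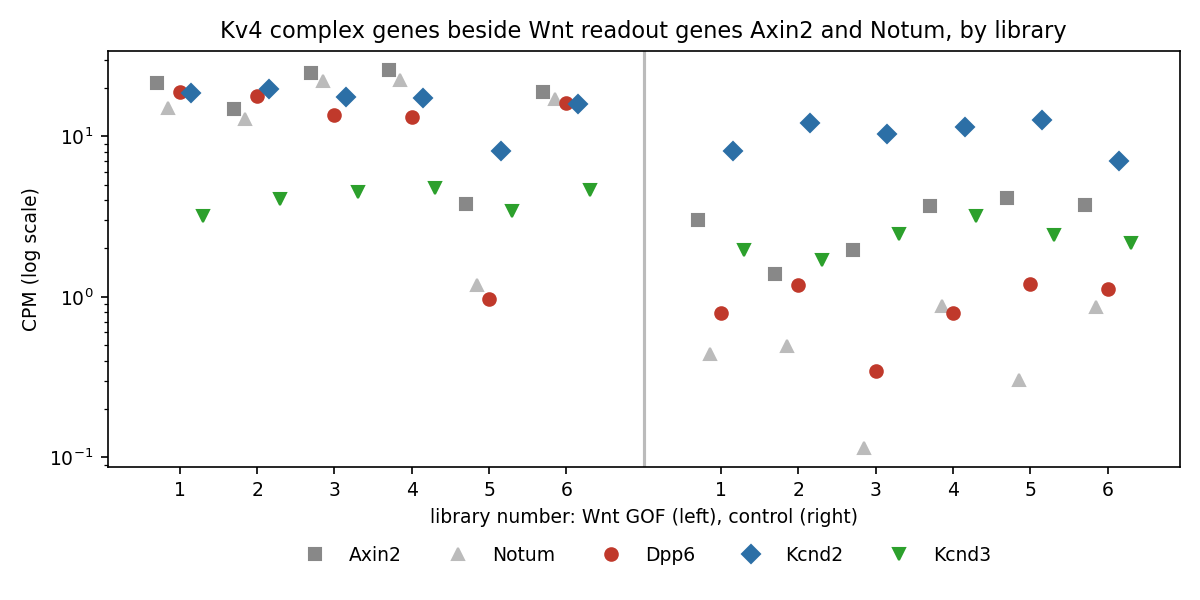
CPM on a log axis of Dpp6, Kcnd2 and Kcnd3 beside the Wnt readout genes Axin2 and Notum in each of the 6 Wnt GOF libraries (left) and 6 control libraries (right). In the library labelled Wnt GOF 5, Axin2 at 3.78 CPM, Dpp6 at 0.962 CPM and Kcnd2 at 8.07 CPM lie within the control range, while Notum at 1.18 CPM and Kcnd3 at 3.40 CPM lie just above it.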

How the data were processed

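Read counts were used as deposited, as whole numbers for each Ensembl gene in each library, and every column was matched to a sample by its title. Subread, featureCounts and edgeR are named in the submitters' processing notes. No genome build, annotation or strand setting is given in the sources used here. The 622 repeated rows of 402 gene IDs carried identical counts and were left out. A second deposited table holds the authors' own log2 fold change and p-value for each gene, plain and adjusted, under the column headings that limma uses.

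The tests used edgeR 4.0.16 under R 4.3.3. filterByExpr at a minimum count of 10 retained 14774 genes. After scaling by trimmed mean of M values, groups were compared by the robust quasi-likelihood test with group as the only term, Benjamini-Hochberg adjustment over all tested genes and a threshold of 0.05. Log2 fold changes are Wnt GOF over control, and SE and 95% intervals were derived from the F statistic. Log2 CPM used a prior count of 2. Lengths are merged exons of GENCODE M21, and promoter sequences are from RefSeq. The test was checked on simulated counts.

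The members and the 11 other lists were chosen with earlier results of these data known. All members are named, with the called genes and the 2 lowest p of each other list and the 3 genes most like each member with a mean of at least 1 CPM. Axin2, Notum, Foxd3 and 5730480H06Rik were named after their values were seen. The 22nd regulator symbol was not matched. To find library sets, deviations from group means were correlated and the libraries clustered by average linkage into 3, and pairs came from a chi-square per gene. Alternatives were DESeq2 1.42.0, limma-voom (limma 3.58.1), other scalings, count filters and thresholds, no robust shrinkage, blocks, summed pairs and each library left out. Fits with DESeq2, limma-voom or summed pairs that also leave out the library labelled Wnt GOF 5 were added after seeing the data.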

Additional observations from a re-analysis of the deposited data

Results flagged for a closer look

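The library labelled Wnt GOF 5 lay far below the other libraries of its group for Dpp6, at 0.962 CPM against 13.2 CPM in the next lowest, a gap of 0.683 of the group's range. It lay as far below for Kcnd2, at 8.07 CPM against 15.9 CPM in the next lowest, a gap of 0.671 of the range. Both pass Dixon's critical value for 6 samples. In all, 18 groups of 6 were examined, and chance flags about 1 in 20.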

How the results depend on the processing

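All 6 tested members kept the sign of their fold change under all alternatives that gave a value. Dpp6 ranged from 3.57 to 4.22 and lost its call under limma-voom (3.57) and summed pairs (3.78). Kcnd3 passed in 6 of 26 alternatives and Kcnd2 in 4. For both genes these include edgeR, limma-voom and DESeq2 without the library labelled Wnt GOF 5. Those limma-voom and DESeq2 fits were added after seeing the data. Otherwise Kcnd2 passed only with the library sets as a block, and Kcnd3 there, in DESeq2 and without control 4. Members called higher numbered 1 in edgeR with all libraries, 2 in DESeq2, 0 in limma-voom, 0 at a threshold of 0.01, 3 with the library sets as a block, 0 with the closest pairs summed, and 1 to 3 when 1 library was left out (3 without the library labelled Wnt GOF 5, 2 without control 4). With that Wnt GOF library left out they were 3 in limma-voom, 3 in DESeq2 and 1 with the closest pairs summed. Members called lower numbered 0 under every alternative. At an unadjusted p under 0.05 they were 0 in edgeR with all libraries, and 1, Kcnip3, without Wnt GOF 6 (-0.66, edgeR adjusted p = 0.702). Over all genes, edgeR called 64 higher and 10 lower. The counts were 135 and 25 in DESeq2, 3 and 3 in limma-voom, 8 and 2 at 0.01, 195 and 100 with the library sets, 0 and 1 with summed pairs, and 97 higher with no count filter. With a library left out they ranged from 34 to 149 higher and from 4 to 28 lower. They were 35 and 5 without Wnt GOF 1, 34 and 5 without Wnt GOF 2, 37 and 5 without Wnt GOF 4 and 149 and 28 without Wnt GOF 5, and 4 and 6 were lower without Wnt GOF 3 and without control 3. Without Wnt GOF 5 they were 152 and 25 in limma-voom, 234 and 76 in DESeq2, and 103 higher with summed pairs. The causes were not tested. Replicate numbers shared across the groups did not pair the libraries (correlations of deviations from -0.377 to 0.463). With the replicate number as a block, edgeR called 47 higher and 8 lower genes, Dpp6 among them (log2 fold change 3.78, adjusted p = 0.0467). Depth limits Dpp10, Kcnip1 and Kcnip2 most, with 10, 17 and 75 counts over 12 libraries.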
